A study of Homo sapiens with 4 samples.

Results

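The 10 upstream regulators of the mTORC1 kinase complex described here are DDIT4, its paralogue DDIT4L, the sestrins SESN1, SESN2 and SESN3, TSC1, TSC2, RHEB, the mTOR-binding inhibitor DEPTOR and the Rag GTPase RRAGD. They were chosen by name, with earlier results of these data known. Of the 54613 probe sets on the array, 28 were annotated to exactly 1 of these genes. Each gene is followed through its brightest probe set, as were all 19752 genes tested, and the other probe sets are given beside it by value or range. The complex itself drives protein and ribosome synthesis and holds autophagy back while growth factors, energy and amino acids are in good supply. The small GTPase RHEB switches it on at the lysosome, and the TSC1-TSC2 complex switches RHEB off. DDIT4, also called REDD1, restrains mTORC1 through TSC1-TSC2 and is a known target of hypoxia and stress signalling. Sestrins restrain the amino acid branch, in which Rag GTPases bring mTORC1 to the lysosome.

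RNA came from KYSE170, an established human line derived from squamous carcinoma of the oesophagus. Cultures received EDHB (ethyl-3,4-dihydroxybenzoate) at 50 µg/ml for 12 h (2 arrays) or were left untreated (2 arrays), all in medium with serum and antibiotics. EDHB inhibits prolyl hydroxylases, the iron-dependent enzymes that target hypoxia-inducible factors for breakdown. The comparison asked how expression differed after exposure. The labels do not say whether replicates came from separate cultures, so each p-value speaks only to the spread among the 4 arrays, which may be technical. RNA of whole cultures cannot tell a change in all cells from a change in some of them.

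The deposited replicate 2 columns do not follow the row order of replicate 1. As deposited, the correlation across probe sets was 0.418 between the EDHB arrays and 0.415 between the untreated arrays (log2 levels), and after restoring it was 0.997 in each group. The differences between EDHB and untreated correlated far less between replicates, at 0.0438 as deposited and 0.378 after restoring. The order was restored as an inference from the untreated levels, which were thus chosen to match, and from a sorted layout with 2-fold changed values first, for 54467 probe sets (99.7%), among them all 28 of the genes described here. The posterior of the restored position was 0.991 for DDIT4 and at least 0.999998 for the other 27 probe sets. Differences within replicate 1 (EDHB 1 minus untreated 1) need no restoring. They are given for the genes below, or follow from the levels printed. Median intensity lay between 23.2 and 23.4 on the 4 arrays. Of 7 measured squamous epithelial markers, 6 lay above the median probe set, as did 0 of 3 leukocyte, 2 of 6 fibroblast (COL1A1 and PDGFRB) and 1 of 3 endothelial markers (PECAM1). KRT14 was the epithelial marker below it. Of all 19752 genes, each read by its brightest probe set, 12394 lay above the median probe set.

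DDIT4 and the sestrins SESN2 and SESN3 were the members with the largest differences, all higher after EDHB, while RHEB and TSC2 differed little. In limma with Benjamini-Hochberg adjustment over all genes, 0 of the 10 members passed an adjusted p under 0.05. The background is that 0.0101% of the 19752 genes passed, and at an unadjusted p under 0.05 there were 3 members against 16.9% of all genes. In 5 members, namely DDIT4, SESN1, SESN2, SESN3 and TSC1, both EDHB arrays lay above both untreated arrays, against 23.3% of all genes. In 0 members did both lie below, against 22.6% of all genes. Groups that did not overlap in either direction thus made up 5 of 10 members, beside 45.8% of all genes. The median difference over the 10 members was 0.14 log2 units, and -0.001 over all genes.

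**Figure D1:**
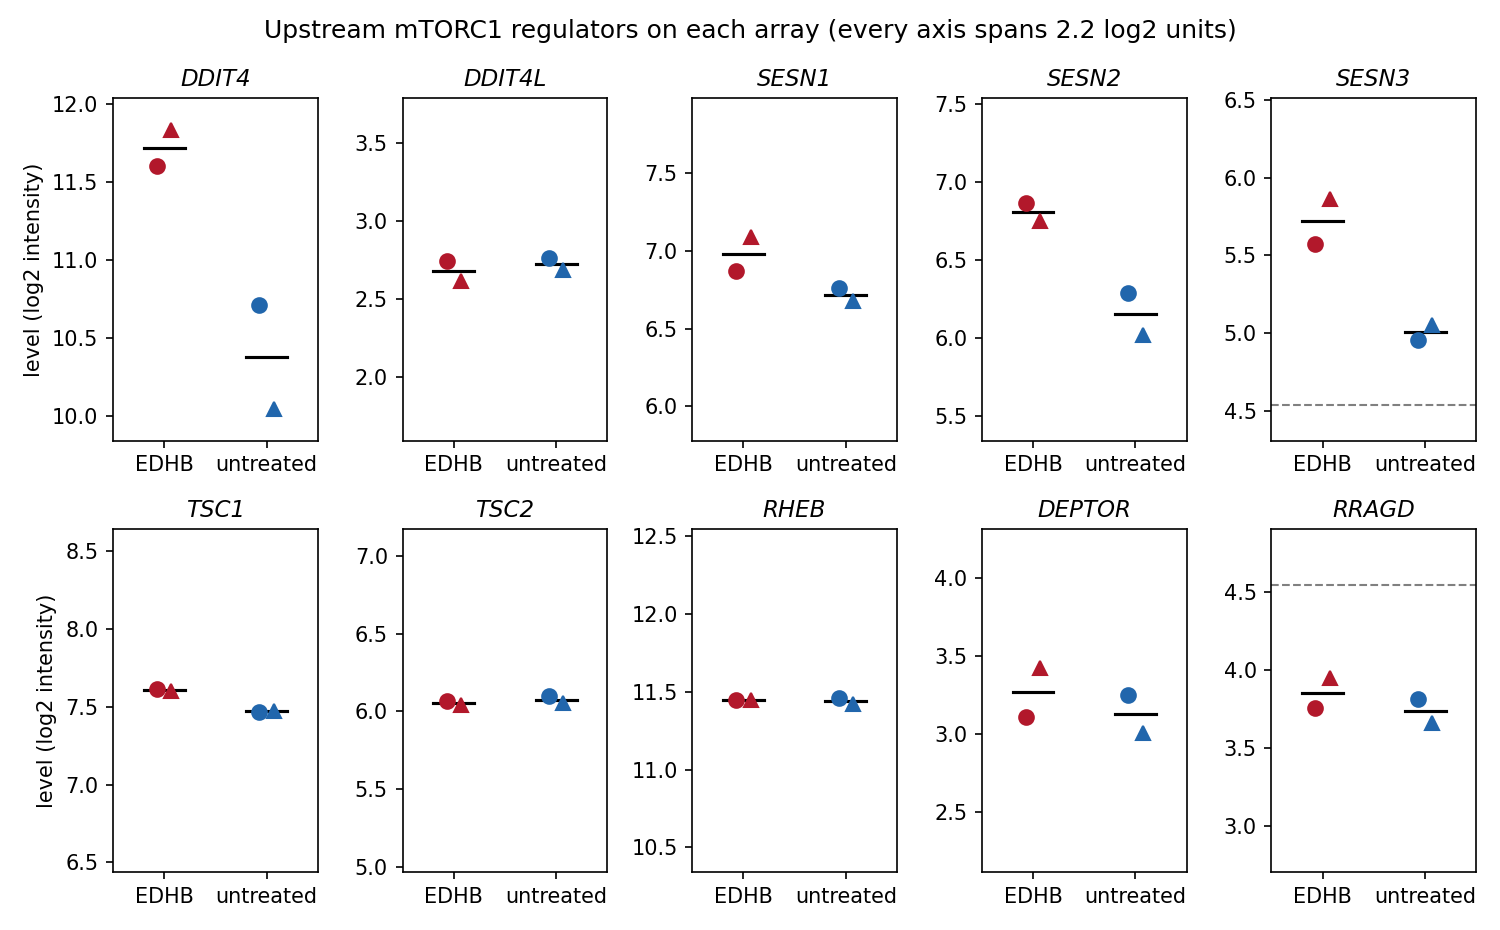
Level (log2 intensity) of the brightest probe set of each gene on each array, EDHB in red and untreated in blue, with circles for replicate 1, triangles for replicate 2 and a bar at each mean. Every axis spans 2.2 log2 units, and the dashed line marks the median probe set (4.54) where it falls in range. DDIT4 had the largest gap between groups, and the untreated arrays of DDIT4 also stood furthest apart.

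DDIT4 is measured by a single probe set, 202887_s_at. Its log2 level was 11.61 and 11.84 on the EDHB arrays, against 10.71 and 10.05 on the untreated arrays. On the linear scale these are intensities of 3117 and 3660 with EDHB and 1680 and 1057 without. Both EDHB arrays were higher than both untreated ones, and the untreated arrays differed from each other by 0.67, a gap that only 0.532% of genes reached or passed. The means were 11.72 ± 0.16 with EDHB and 10.38 ± 0.47 without (SD, n = 2 each). The difference was 1.34 ± 0.23 log2 units (SE), or 2.53-fold, with a 95% interval from 0.74 to 1.94 and an adjusted p of 0.122 in limma. Only 0.0759% of the 19752 genes tested had a larger positive difference (rank 16). These are genes with a restored probe set, and 118 of the 193 replicate 2 values in the 2-fold changed parts were restored, so genes that could rank above DDIT4 may be missing.

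The size of the DDIT4 difference depends on the replicate. With arrays matched by replicate number, it was 0.89 within replicate 1 and 1.79 within replicate 2. The replicate 2 value was matched to a part of the table that holds only values raised at least 2-fold, so that its size could not have come out below 1 there. The direction does not rest on the restoring, since replicate 1 shows it as deposited.

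DDIT4L, known as REDD2, is a paralogue with a similar inhibitory role. It had log2 levels of 2.74 and 2.62 with EDHB, against 2.76 and 2.68 without. All 4 values lie below the median probe set (4.54) and were not shown to be above background, and the groups overlapped. No difference of DDIT4L was detectable at this signal (-0.04 ± 0.09, SE, n = 2 each; adjusted p = 0.863 in limma).

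The sequence just upstream of the 3 members with the largest differences is shown because hypoxia-inducible factors bind a short core, ACGTG or GCGTG, in the genes they act on. Each window runs from 250 bases before to 50 bases after a transcript start in RefSeq on GRCh38.p14. Such windows were searched for 8 of the 10 members (11 windows), and DEPTOR was left out of the search. Capitals mark the core on either strand. DDIT4 lies at chr10:72273674-72273973 on the plus strand, SESN2 at chr1:28259268-28259567 on the plus strand and SESN3 at chr11:95232426-95232725 on the minus strand.
DDIT4: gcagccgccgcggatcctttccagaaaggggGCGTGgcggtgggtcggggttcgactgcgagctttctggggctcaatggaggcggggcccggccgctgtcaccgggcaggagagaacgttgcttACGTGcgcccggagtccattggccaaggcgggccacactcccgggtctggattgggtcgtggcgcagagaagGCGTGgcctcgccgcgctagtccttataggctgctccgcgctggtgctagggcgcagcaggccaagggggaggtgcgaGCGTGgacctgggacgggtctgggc
SESN2: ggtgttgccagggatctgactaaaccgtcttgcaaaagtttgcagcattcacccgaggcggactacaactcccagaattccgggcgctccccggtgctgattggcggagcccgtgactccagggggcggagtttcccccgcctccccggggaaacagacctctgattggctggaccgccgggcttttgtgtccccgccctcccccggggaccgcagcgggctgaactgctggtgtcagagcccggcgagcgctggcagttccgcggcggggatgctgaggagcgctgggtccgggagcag
SESN3: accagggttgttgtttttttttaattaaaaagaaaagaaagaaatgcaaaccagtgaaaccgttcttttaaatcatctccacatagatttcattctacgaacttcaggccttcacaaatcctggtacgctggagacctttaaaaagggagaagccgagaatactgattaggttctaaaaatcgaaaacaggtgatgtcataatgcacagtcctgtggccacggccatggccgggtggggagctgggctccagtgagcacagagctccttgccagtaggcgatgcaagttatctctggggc

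The DDIT4 window held 4 core matches, 219, 125 and 53 bases before the start and 26 bases into the transcript, all on the strand of the gene. At least 1 match was found in 48.4% of all 35116 windows, and 4 or more in 4.40%, where overlapping matches on both strands count separately. SESN2 and SESN3 held 0. Matches were also found in windows of SESN1, TSC2 and RHEB. For TSC2 the core stood inside CACGTG, the E-box bound by TFEB and related factors, which 7.26% of windows hold. The antioxidant response element of NRF2, searched as TGACNNNGC on both strands (13.3% of windows), occurred in windows of SESN1, TSC2 and RHEB. The amino acid response element of ATF4, searched as TGATGNAA (3.62% of windows), occurred in the same TSC2 window. The forkhead element GTAAACA (3.42% of windows) occurred in none of the 11 member windows. The DDIT4 and SESN2 windows had a GC content of 69.7% and 67%, and the SESN3 window 45%, against a median of 58.7% over all windows. These are matches of letters in a short window and say nothing of binding.

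SESN2, a leucine-binding inhibitor of the amino acid branch and a known target of ATF4, NRF2 and p53, is read by a pair of probe sets that differed alike. The brighter one (223196_s_at) had log2 levels of 6.86 and 6.75 with EDHB, against 6.29 and 6.01 without. Both EDHB arrays stood above both untreated arrays. The difference was 0.66 ± 0.12 (SE, n = 2 each), or 1.58-fold, with an adjusted p of 0.124 in limma and values of 0.58 and 0.74 within replicates 1 and 2. Only 0.845% of genes had a larger positive difference. The other probe set (223195_s_at) had 6.998 and 6.759 with EDHB, against 6.11 and 6.02 without, a difference of 0.82 with 0.89 within replicate 1.

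SESN3, a sestrin known as a target of FOXO factors, has 7 probe sets. On the brightest (225123_at) the log2 levels were 5.58 and 5.86 with EDHB, against 4.96 and 5.05 without, so the groups stood apart. The difference was 0.71 ± 0.12 (SE, n = 2 each), or 1.64-fold, with an adjusted p of 0.119 in limma and values of 0.62 and 0.81 within replicates 1 and 2. A further probe set near that level (235683_at) gave 5.30 and 5.38 with EDHB, against 4.66 and 4.52 without, a difference of 0.75. The other 5 probe sets lay below the median probe set and differed by -0.13 to 0.35. Averaging all 7 lowered the SESN3 difference to 0.28.

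SESN1, the sestrin first known as the p53 target PA26, differed less. Its log2 level was 6.87 and 7.09 on the EDHB arrays, against 6.76 and 6.68 on the untreated arrays. The groups did not overlap, yet the difference of 0.26 ± 0.10 (SE, n = 2 each) had a 95% interval from -0.01 to 0.52 and an adjusted p of 0.308 in limma. Within replicates 1 and 2 it was 0.11 and 0.41.

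**Figure D2:**
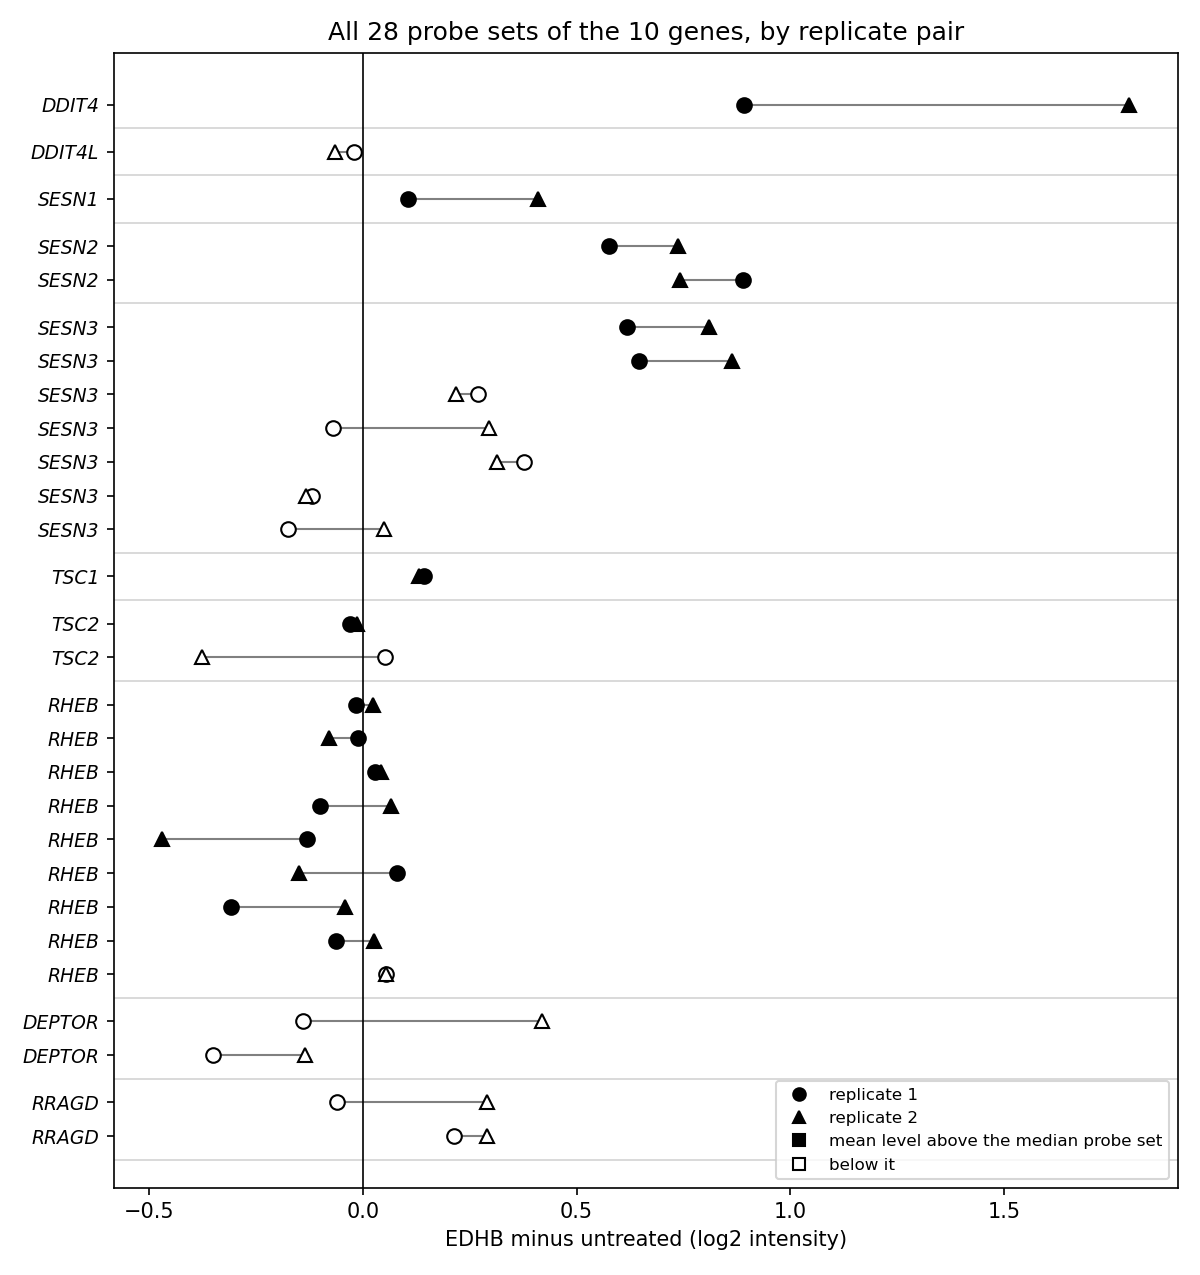
EDHB minus untreated (log2 intensity) of all 28 probe sets within replicate 1 (circles) and replicate 2 (triangles), brightest probe set of each gene first. Filled symbols mark the 16 probe sets with a mean level above the median probe set. Those of SESN2 and the filled ones of SESN3 lie between 0.58 and 0.89 in both replicates. Those of RHEB lie between -0.47 and 0.08, and 6 of its 9 probe sets were lower with EDHB on average.

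Fits that share spread differently between genes put DDIT4, SESN2 and SESN3 on either side of the threshold. With an intensity trend in limma's prior variance, DDIT4 (adjusted p = 0.0377) and SESN3 (adjusted p = 0.0492) passed and SESN2 (adjusted p = 0.050003) just missed. That fit called 2.4% of all genes, and 1.37% as higher. With genes below the median probe set removed, all 3 passed in limma, with adjusted p of 0.0388, 0.0402 and 0.0361 for DDIT4, SESN2 and SESN3, where 4.8% of genes passed, 2.9% as higher. Over all the alternatives the adjusted p in limma ran from 0.0377 to 0.571 for DDIT4, from 0.0402 to 0.571 for SESN2 and from 0.0361 to 0.571 for SESN3. The trend fit with a block for replicate number, chosen after seeing the data, called 0 of the 10 members and 0 of all 19752 genes. Without any 1 of the 4 arrays, the DDIT4 difference ran from 1.01 to 1.68. That of SESN2 ran from 0.52 to 0.79 and that of SESN3 from 0.57 to 0.86.

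The TSC complex and RHEB, through which DDIT4 acts, differed little. TSC1, the scaffold of the complex, had log2 levels of 7.61 and 7.60 with EDHB, against 7.47 and 7.47 without, which did not overlap. The difference of 0.14 ± 0.07 (SE, n = 2 each; adjusted p = 0.424 in limma) had a 95% interval from -0.05 to 0.33. TSC2, the subunit that acts on RHEB, had 6.07 and 6.04 with EDHB, against 6.10 and 6.05 without, and the groups overlapped. Its difference of -0.02 ± 0.08 (SE; adjusted p = 0.929 in limma) had an interval from -0.21 to 0.17. A second probe set of TSC2, below the median probe set, gave -0.16.

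RHEB, with 9 probe sets, had log2 levels of 11.45 and 11.45 with EDHB on the brightest (201453_x_at), against 11.46 and 11.42 without. The difference was 0.00 ± 0.07 (SE, n = 2 each; adjusted p = 0.99 in limma), with a 95% interval from -0.19 to 0.19. Probe sets whose names end in x can also pick up other transcripts. Of the 8 probe sets above the median, 6 differed by less than 0.05 in size. The exceptions were 201451_x_at (-0.17) and 227633_at (-0.30), and the probe set below the median differed by 0.05. On 227633_at the levels were 6.63 and 6.34 with EDHB, against 6.76 and 6.81 without. No probe set of any member passed when every probe set was tested on its own in limma (0 of the 10 members). How many of all 40972 probe sets tested passed is not given here, so this 0 has no background to be read against.

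DEPTOR and RRAGD could not be resolved. DEPTOR had log2 levels of 3.11 and 3.42 with EDHB, against 3.249 and 3.004 without, and RRAGD had 3.76 and 3.95 with EDHB, against 3.82 and 3.66 without. All of these lie below the median probe set, not shown to be above background, and on these brightest probe sets both genes' groups overlapped. Within replicates 1 and 2 the difference was -0.14 and 0.42 for DEPTOR and -0.06 and 0.29 for RRAGD. On the second, dimmer probe set of each gene the groups did not overlap. That of DEPTOR (234071_at) had 1.497 and 1.615 with EDHB, against 1.847 and 1.750 without (-0.24). That of RRAGD (221523_s_at) had 1.83 and 1.97 with EDHB, against 1.62 and 1.68 without (0.25).

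The rest of the pathway had no common direction. Of 66 measured genes on 4 lists (mTOR complexes, Rag and amino acid sensing, growth factor and energy input, mTORC1 substrates and effectors), 0 passed in limma, with 12 higher and 9 lower at an unadjusted p under 0.05, against 8.86% higher and 8.05% lower of all genes. EDHB arrays stood above both untreated arrays in 21 genes and below both in 21, against 23.3% and 22.6% of all genes, and the groups overlapped in 24. Their median difference was -0.01. The trend fit, which called 2.4% of all genes, called 3 of the 66, all higher, namely RHEBL1, LPIN1 and RICTOR.

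**Figure D3:**
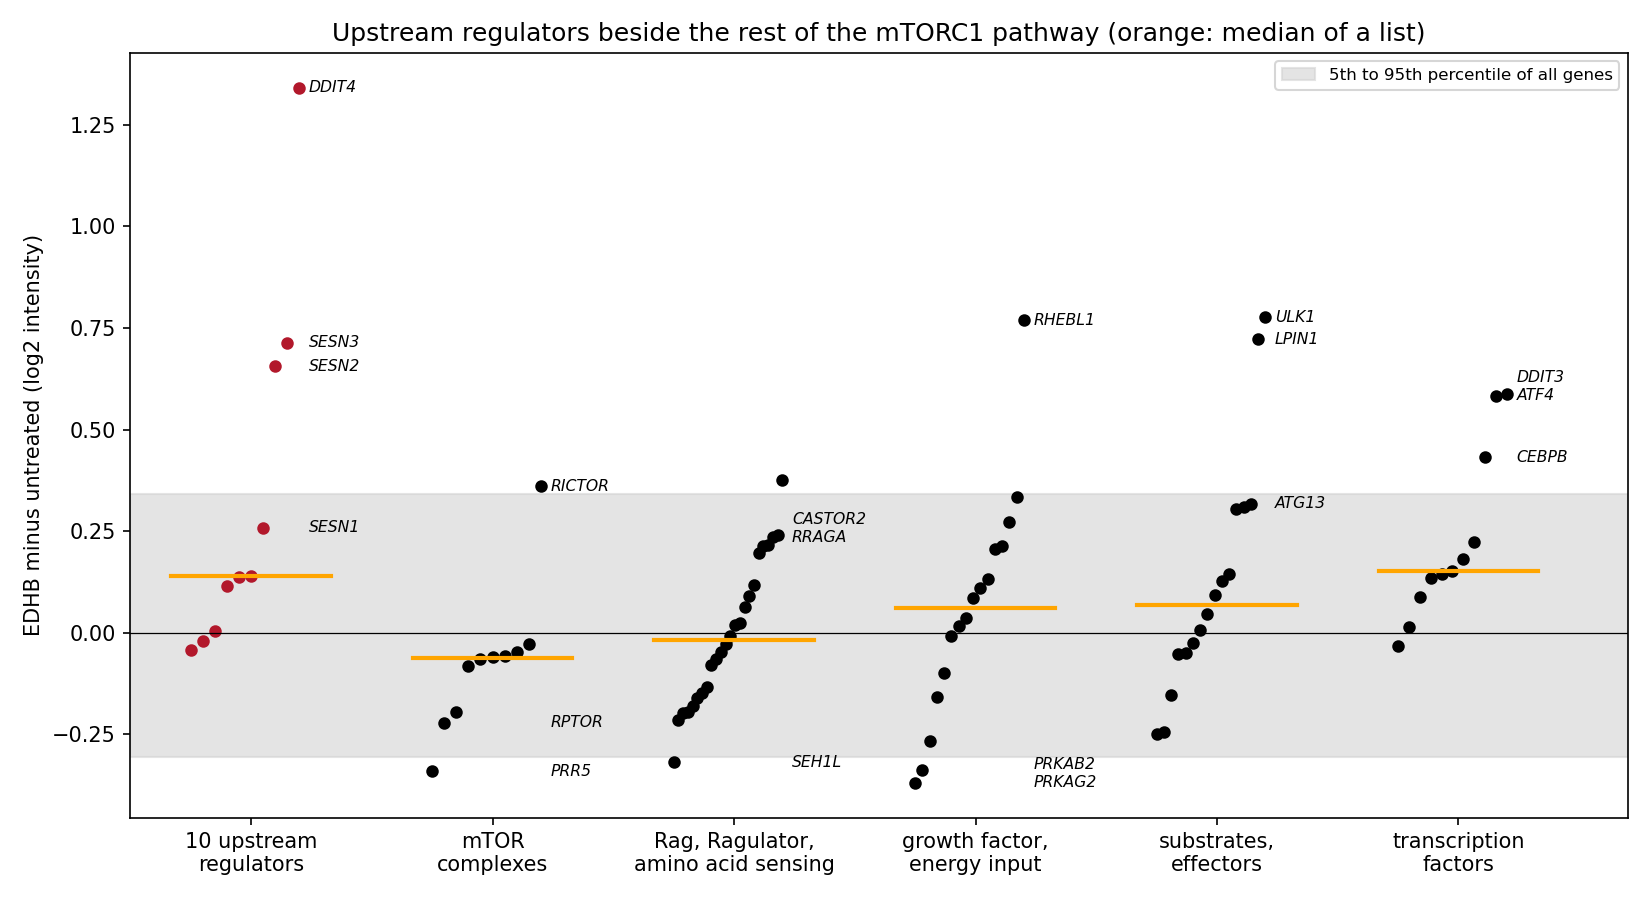
EDHB minus untreated (log2 intensity) of the brightest probe set of each gene, by list, with the 10 upstream regulators in red and an orange bar at each median. The grey band spans the 5th to the 95th percentile of all genes (-0.31 to 0.34). DDIT4, SESN3 and SESN2 lie above the band. So do RHEBL1, ULK1, LPIN1, RICTOR, DDIT3, ATF4 and CEBPB among the other genes labelled, and CASTOR1, which is not labelled. PRKAG2, PRR5, PRKAB2 and SEH1L lie below it.

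Of the kinase complexes, 10 genes were measured, and with EDHB 5 of them stood below both untreated arrays (22.6% of all genes) and 1 above (23.3% of all genes). Only 1 of the 10, RICTOR, had a difference above 0, against 9753 of all 19752 genes. The median difference of this list was -0.06. RICTOR, the defining subunit of mTORC2, had log2 levels of 8.951 and 8.996 with EDHB, against 8.63 and 8.60 without (0.36 ± 0.08, SE). RPTOR, which brings substrates to mTORC1, had 5.60 and 5.57 with EDHB, against 5.84 and 5.78 without (-0.22 ± 0.08, SE). PRR5, a further mTORC2 subunit, had 6.14 and 6.01 with EDHB, against 6.41 and 6.43 without (-0.34 ± 0.09, SE). The adjusted p in limma was 0.144 for RICTOR, 0.249 for RPTOR and 0.168 for PRR5.

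In the Rag and amino acid sensing list, 5 of 24 measured genes stood above both untreated arrays (23.3% of all genes) and 8 below (22.6% of all genes). SEH1L, a subunit of GATOR2, the complex that sestrins bind, had 10.11 and 10.08 with EDHB, against 10.32 and 10.51 without (-0.32 ± 0.10, SE). CASTOR2, a relative of the arginine sensor CASTOR1, differed by 0.24 ± 0.08 and the Rag GTPase RRAGA by 0.23 ± 0.10 (SE). Within replicate 1 these were 0.19 for CASTOR2 and 0.087 for RRAGA. The adjusted p in limma was 0.215, 0.253 and 0.331 for SEH1L, CASTOR2 and RRAGA. CASTOR1 itself had a larger difference, 0.38 ± 0.09 (SE; adjusted p = 0.162 in limma). Its levels were 4.61 and 4.77 with EDHB, against 4.33 and 4.30 without. Their mean lay below the median probe set, so CASTOR1 was not among the genes chosen for naming.

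Among 16 measured genes of growth factor and energy input, the RHEB paralogue RHEBL1 differed most. It had log2 levels of 6.32 and 6.45 with EDHB, against 5.71 and 5.53 without, a difference of 0.77 ± 0.10 (SE; adjusted p = 0.0965 in limma, 0.0325 with the trend). RHEB itself differed by 0.00 in the same fit. The AMPK subunits PRKAG2 and PRKAB2 differed by -0.37 ± 0.08 and -0.34 ± 0.08 (SE), with adjusted p of 0.147 and 0.154 in limma, and both stood below the untreated arrays. Within replicate 1 they differed by -0.36 and -0.35.

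The substrates and effectors held 16 measured genes, 7 of them above both untreated arrays (23.3% of all genes) and 3 below (22.6% of all genes). ULK1, the kinase that starts autophagy and that mTORC1 inhibits, had 5.94 and 6.01 with EDHB, against 5.38 and 5.01 without (0.78 ± 0.14, SE). LPIN1, a phosphatidate phosphatase and mTORC1 substrate, had 8.69 and 8.78 with EDHB, against 8.16 and 7.86 without (0.72 ± 0.12, SE). ATG13, a partner of ULK1, differed by 0.32 ± 0.08 (SE), and by 0.39 within replicate 1. The adjusted p in limma was 0.124, 0.119 and 0.183 for ULK1, LPIN1 and ATG13.

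Of 11 measured transcription factors known to act on members, 8 stood above both untreated arrays (23.3% of all genes) and 0 below (22.6% of all genes). ATF4, the factor of the amino acid response, had 11.11 and 11.24 with EDHB, against 10.64 and 10.55 without, a difference of 0.58 ± 0.09 (SE; adjusted p = 0.108 in limma). DDIT3, a stress factor that ATF4 induces, differed by 0.59 ± 0.16 and CEBPB by 0.43 ± 0.10 (SE), with adjusted p of 0.186 and 0.155 in limma. Within replicate 1 DDIT3 differed by 0.31 and CEBPB by 0.38. None of the 11 passed in limma, 4 were higher at an unadjusted p under 0.05 (8.86% of all genes), and the trend fit called ATF4 and CEBPB (2.4% of all genes). Levels of these messages were not tested for a part in the differences of the members.

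Over the 4 arrays, genes were set beside DDIT4 and SESN2 by the Euclidean distance of their log2 levels after removal of each gene's mean, among 12393 other genes above the median probe set. Nearest to DDIT4 were CHAC1 at a distance of 0.151, a glutathione-degrading enzyme, NUPR1 at 0.205, a stress-induced nuclear protein, and BNIP3L at 0.209, a mitophagy receptor. The death ligand TNFSF10 followed at 0.230 and the ubiquitin ligase TRIM2 at 0.315, against a median distance of 1.43. CHAC1 had 5.71 and 5.91 with EDHB, against 4.64 and 4.17 without, with the lower untreated value in replicate 2 as in DDIT4. The replicate 2 values of all 5 genes, like that of DDIT4, were placed in the part of the table that holds only values at least 2-fold higher, so a large replicate 2 difference was a condition of being there. Within replicate 1, where no such placement was required, they differed by 0.66 (TNFSF10) to 1.06 (CHAC1), against 0.89 for DDIT4. All 4 arrays entered the distance, so a replicate 1 difference near that of DDIT4 was itself a condition of being named. Nearest to SESN2 were LRRC75A at 0.042, the centromere protein CENPU at 0.049, C1orf116 at 0.064, the insulin receptor substrate IRS2 at 0.066 and the acyltransferase MBOAT1 at 0.068, against a median of 0.693. The 2 medians mostly reflect how far DDIT4 and SESN2 themselves differed between arrays, since a gene that does not change lies about that far away. With 4 arrays, such nearness is a description only.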

How the data were processed

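Biotinylated cRNA from total RNA was read on 4 Affymetrix arrays, per the labels' protocols. The authors deposited linear intensity values, 1 for each probe set on an array. The submitters' processing notes name RMA, and its software and any genome build are not given in the sources used here. This method equalises the distributions of the arrays and so removes any global difference. Values lay between 1.55 and 13393, and log2 was taken without a pseudocount.

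The replicate 2 values were inferred to stand as 148 values at least 2-fold higher, 45 at least 2-fold lower and 54419 in ID order, with the sign _ sorted before digits as in a spreadsheet. A forward-backward alignment on untreated levels (Student's t density, scale 0.15, 3 degrees of freedom) restored their order. Probe sets with a posterior of at least 0.95 were kept. Only 118 of the 193 values in the 2-fold parts were restored, which leaves strongly changed probe sets under-represented.

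Gene names came from the platform annotation (41091 with 1 gene, 1801 with several, 11721 with none listed). No symbol with a match in RefSeq changed, and 54 probe sets whose gene identifier had no match there kept the platform symbol. EDHB minus untreated was tested on 19752 genes in R 4.3.3 with limma 3.58.1 (lmFit, then eBayes with no trend or block, Benjamini-Hochberg adjusted p under 0.05), with 2 residual and 3.06 prior degrees of freedom. Alternatives were an intensity trend, a replicate block, the mean of probe sets, removal of dim genes, further scalings, other posterior minimums and leaving out each array. Python 3.11.15 ran the alignment. Both steps were tested on simulated data. In the simulated alignment the rows of the 2-fold parts were picked at random, not by their change. It therefore does not test the placement of changed probe sets such as that of DDIT4. From each pathway list, the 3 genes with the largest difference, above the median probe set and of 1 sign in both replicates, are named with values. Members and lists were chosen with earlier results of these data known. Of 73 listed pathway genes 66 were tested, and of 12 listed transcription factors 11; the others were not analysed here.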

Additional observations from a re-analysis of the deposited data

How the results depend on the processing

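The number of genes called in limma moved from 2 to 475 (271 higher, 204 lower) with an intensity trend, 595 (360 higher, 235 lower) with dim genes removed, 51 (30 higher, 21 lower) with the mean of all restored probe sets, 44 (32 higher, 12 lower) with arrays centred on their medians and 40 (30 higher, 10 lower) with cyclic loess. It was 0 with a replicate block, 0 with a posterior minimum of 0.5, and 0 without any 1 array, with and without the trend. The trend fit with a replicate block, like its fits without an array, was chosen after seeing the data and called 0. Members called moved from 0 to 2 with the trend and 3 with dim genes removed, and other pathway genes from 0 to 3 and 4. These values stayed at 0 with the replicate block and without any 1 array, where a lone sample is assumed to vary like the other group.

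With the trend, the differences that newly passed were 1.34 for DDIT4 and 0.71 for SESN3, and with dim genes removed 1.34 for DDIT4, 0.66 for SESN2 and 0.71 for SESN3. Without 1 array they ran from 1.01 to 1.68 for DDIT4, 0.52 to 0.79 for SESN2, 0.57 to 0.86 for SESN3, 0.15 to 0.37 for SESN1, 0.13 to 0.14 for TSC1 and 0.02 to 0.21 for RRAGD. Directions turned for DDIT4L (-0.106 to 0.0201), TSC2 (-0.0443 to 0.00185), RHEB (-0.0143 to 0.0233) and DEPTOR (-0.0180 to 0.298), also with the trend. The mean of all probe sets turned RHEB to -0.0549 and DEPTOR to -0.0512. Replicate 1 alone gave 0.89 for DDIT4, 0.11 for SESN1, 0.14 for TSC1, -0.0154 for RHEB, -0.14 for DEPTOR and -0.0590 for RRAGD. Replicate differences correlated at 0.090 between the groups across genes. The labels state no pairing, and this correlation cannot settle whether arrays of the same replicate number were paired. The number of arrays, 2 per group, limits all of these values.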
